A study of Rattus norvegicus with 160 samples.

Results

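The genes described here are 50 nuclear genes for subunits of the mitochondrial respiratory chain, out of 25903 array identifiers, of which 9506 could be paired with a rat gene symbol. They were chosen by symbol alone: every identifier whose RefSeq accession belonged to a rat symbol beginning Nduf (followed by a, b, c, s or v and a digit), Sdha to Sdhd, Uqcr, Cox4 to Cox8 or Atp5, with 1 identifier per symbol. Complex I gave 14 members, complex II 3, complex III 5, complex IV 13 and complex V 15. Each member had a single identifier and was measured in both brain regions, whereas 109 protein-coding rat symbols fit the same naming rule. No filter on low values was applied, so all 50 entered each test.

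The respiratory chain sits in the inner mitochondrial membrane. Complexes I and II pass electrons from NADH and succinate to ubiquinone, complex III passes them to cytochrome c, and complex IV, cytochrome c oxidase, passes them to oxygen. The proton gradient built on the way drives complex V, the ATP synthase, on which neurons depend for most of their ATP.

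Male Sprague-Dawley rats of the selectively bred lines LR and HR were studied at postnatal days 7, 14, 21 and 75 (P07, P14, P21 and adult), and RNA of the dissected hippocampus and amygdala was put on 1-colour NimbleGen arrays. The study asks how maternal style bears on amygdala development in anxiety-prone rats. There were 4 rearing groups. The LR and HR groups stayed with their own mothers. The LR-LR group held LR pups given to another LR dam, and the LR-HR group held LR pups raised by a foster dam of the HR line. No group held HR pups fostered to either line, so an HR dam and an HR pup's own line were separated only through the LR pups. With 5 arrays for every rearing group at an age in a region, 160 arrays formed 32 groups. Litters and dams of single rats are not given, so that p-values measure the spread between these arrays, and rats that shared a litter would count as separate. Slides, scan dates and other batches are likewise not given and were not modelled.

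Values are the log2 of RMA intensities, deposited by the authors on a linear scale. The regions were taken to have been normalized separately (22197 transcripts in the amygdala, 25897 in the hippocampus). Levels are compared only within a region and within a gene. The median correlation of an array with the other arrays of its group was between 0.872 and 0.971 in the amygdala. At P21 it was 0.87 to 0.92 in LR-HR and 0.89 to 0.93 in HR, below all arrays of LR (0.94 to 0.97) and LR-LR (0.95 to 0.97). In adults it was 0.89 to 0.94 in LR and 0.87 to 0.93 in LR-LR, below all arrays of LR-HR and HR (0.95 to 0.97 in each). Whether this bears on differences between those groups was not tested. In the hippocampus the median correlation was between 0.873 and 0.947 except at P21. There LR array 5 and all 5 LR-LR arrays stood apart with values from 0.663 to 0.761. A random control sequence, present in the hippocampal values only, averaged 5.89 ± 0.10 (log2, SD over 80 arrays). Cox8b was at or below it in 28 hippocampal arrays, Cox4i2 in 6, Cox6a2 in 2, and Cox8c and Ndufs1 in 1 each. Of markers for the dissected tissue, the amygdala neuron list had 5 of 8 genes measured, with array means from 8.90 to 10.01 in the amygdala, and the hippocampal neuron list had 2 of 8, with array means from 5.88 to 9.01 in the hippocampus. In bulk tissue, fewer cells of a type and less RNA per cell cannot be told apart.

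Respiratory chain genes are known targets of the transcription factors NRF1 and the ETS family member GABP, and YY1 has sites in some of them. The 250 bases before the annotated start were available from RefSeq (GRCr8) for 44 of the 50 members. The 4 promoters below belong to the genes on which the amygdala results turn: Cox7a2 and Atp5me, in which LR-HR exceeded LR-LR at P21, and Ndufs1 and Sdha, in which it was lower. Each is written 5′ to 3′ on the gene's strand, and capitals mark letters that match, on either strand, GCGCANGCG (the core of an NRF1 site), CCGGAAG (an ETS site), AAGATGGC (a YY1 site) or TATAAA.
Cox7a2, chr8:89601150-89601399, minus strand: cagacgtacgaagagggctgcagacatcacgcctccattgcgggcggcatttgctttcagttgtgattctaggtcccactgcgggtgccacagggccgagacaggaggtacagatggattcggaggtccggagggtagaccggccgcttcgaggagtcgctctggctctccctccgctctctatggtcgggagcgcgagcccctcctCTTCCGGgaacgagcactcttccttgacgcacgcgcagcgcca
Atp5me, chr14:1464610-1464859, plus strand: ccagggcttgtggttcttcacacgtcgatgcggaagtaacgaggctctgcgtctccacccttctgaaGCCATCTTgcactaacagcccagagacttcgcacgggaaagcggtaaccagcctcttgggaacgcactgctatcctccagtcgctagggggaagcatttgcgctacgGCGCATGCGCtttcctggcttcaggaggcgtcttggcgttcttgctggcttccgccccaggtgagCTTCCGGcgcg
Ndufs1, chr9:72073606-72073855, minus strand: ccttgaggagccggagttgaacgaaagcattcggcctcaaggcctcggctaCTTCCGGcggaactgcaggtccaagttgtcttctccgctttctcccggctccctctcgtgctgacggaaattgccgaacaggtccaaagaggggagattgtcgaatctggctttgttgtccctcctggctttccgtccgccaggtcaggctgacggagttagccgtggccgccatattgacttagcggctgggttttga
Sdha, chr1:30764303-30764552, plus strand: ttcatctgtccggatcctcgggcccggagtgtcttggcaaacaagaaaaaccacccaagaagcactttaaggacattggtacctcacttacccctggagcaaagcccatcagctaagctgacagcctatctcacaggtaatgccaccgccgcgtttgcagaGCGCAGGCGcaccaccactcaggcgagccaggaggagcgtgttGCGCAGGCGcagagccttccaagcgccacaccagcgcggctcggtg

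The Cox7a2 and Ndufs1 windows each hold 1 ETS match, the first base of which lies 43 bases before the start in Cox7a2 and 199 before it in Ndufs1. Sdha holds 2 NRF1 matches, and Atp5me holds a palindromic NRF1 site that matches on both strands, an ETS match and a YY1 match. Cox7a2 and Ndufs1, which differed in opposite directions at P21, both hold ETS letters, and Atp5me and Sdha both hold NRF1 letters. Whether such letters go with the direction of a difference was not tested. Over the 44 member promoters the NRF1 letters were present in 11 (25.0%), against 5.53% of 27457 promoters of the same length. The ETS letters were present in 13 (29.5% against 7.74%), the YY1 letters in 2 (4.55% against 1.69%) and TATAAA in 3 (6.82% against 13.1%). Counting a promoter once however many it held, 22 member promoters held NRF1, ETS or YY1 letters, against 13.6% of all promoters. Of the members that exceeded LR-LR in the LR-HR amygdala at P14, 14 of 24 promoters held at least 1 of these 3. Of the other members 8 of 20 did, and the 2 shares were not tested against each other. These are matches of letters, and member promoters were also richer in G and C (median 56.4% against 52.0%).

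In the amygdala, LR-HR pups exceeded LR-LR pups in 27 of the 50 members at P14 and in 30 at P21, most of them small, accessory subunits of complexes I, III, IV and V. In 1 member at P14 and 3 at P21 they were lower, and the other members did not pass the test. The largest called difference between LR-HR and LR-LR was 2.08 on the log2 scale (Cox7a2 at P21). Between LR-LR and LR, Atp5me was lower in LR-LR by 2.41 at P14. Sdha differed in the opposite direction to most called members both between LR-HR and LR-LR and between HR and LR, at P14, at P21 and in adults. Ndufs1 did so too, except between LR-HR and LR-LR at P14, where it did not pass. At P07 the mean over the 50 members was at most 11.30 in all 20 arrays, with group medians from 11.05 to 11.25. At P14 it was 11.49 to 11.71 in LR and 11.41 to 11.64 in LR-HR, but 10.64 to 10.90 in LR-LR and 10.51 to 10.85 in HR. At P21 it was 11.25 to 11.61 in LR-HR and 11.21 to 11.50 in HR, but 10.60 to 10.86 in LR and 10.68 to 10.75 in LR-LR. In adults it was 11.10 to 11.41 in LR, 11.09 to 11.43 in LR-LR and 11.06 to 11.24 in LR-HR, but 10.61 to 10.83 in HR. At P14 and P21 the high and the low groups thus did not overlap, and LR-HR was high at both ages while LR-LR was low at both.

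**Figure D1:**
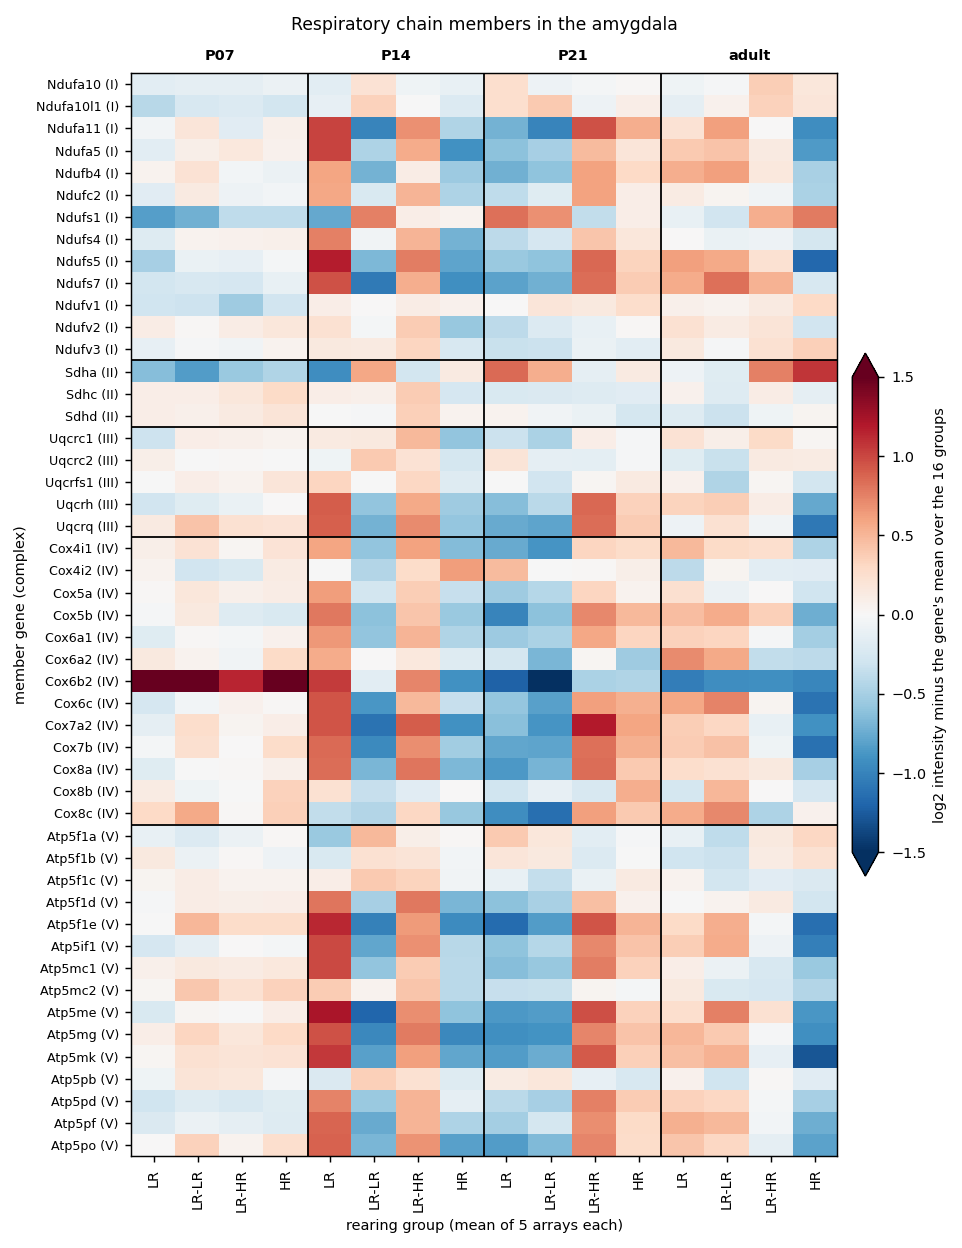
Mean log2 intensity of each of 49 members (rows, by complex) in the 16 amygdala groups (columns, by age and rearing group, 5 arrays each), as the difference from that gene's mean over the 16 groups; colours beyond ±1.5 are clipped. Most rows are red in LR and LR-HR at P14 and in LR-HR and HR at P21, and blue in HR adults, whereas Sdha is highest in HR adults (12.53) and in LR at P21 (12.31), and Cox6b2 is highest at P07.

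**Figure D2:**
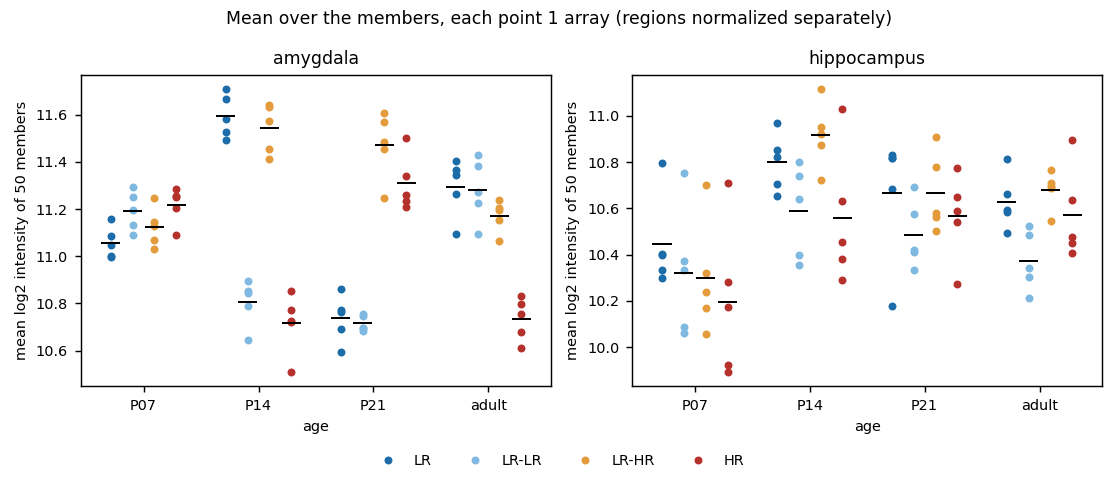
Mean log2 intensity of the 50 members in each array (points) with the mean of the 5 arrays of a group (black lines), by age and rearing group. In the amygdala at P14 the LR-LR and HR arrays lie at or below 10.90 and the LR and LR-HR arrays at or above 11.41, and hippocampal groups overlap at P07, P14 and P21, whereas adult LR-LR arrays (10.52 at most) lie below adult LR-HR arrays (10.54 at least).

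At P14 the foster comparison (LR-HR minus LR-LR), which sets LR pups with an HR foster dam against LR pups with an LR foster dam, gave 27 of 50 members higher and 1 lower. Over all transcripts 8.52% were higher and 13.7% lower at the same threshold, an adjusted p under 0.05 in limma. The median log2 difference was 0.78 over the members and -0.02 over all transcripts. By complex, 6 of 14 members of complex I, 2 of 5 of complex III, 9 of 13 of complex IV and 10 of 15 of complex V were higher, and Sdha of complex II was the 1 lower. All 8 widely expressed complex IV members measured (Cox4i1, Cox5a, Cox5b, Cox6a1, Cox6c, Cox7a2, Cox7b and Cox8a) were higher. So were the 3 small membrane subunits of ATP synthase (Atp5me, Atp5mg and Atp5mk) and its inhibitor protein Atp5if1.

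Cox7a2, a small subunit of cytochrome c oxidase, showed the largest difference. Its log2 intensities at P14 were 11.57, 11.39, 11.62, 11.97 and 11.61 in LR-HR and 9.37, 9.48, 9.63, 9.89 and 9.72 in LR-LR. In LR they were 11.60, 11.93, 11.88, 11.32 and 11.64, and in HR 9.56, 9.81, 10.11, 9.74 and 9.90. All LR and LR-HR arrays thus lay above all LR-LR and HR arrays. The foster difference was 2.02 ± 0.18 (SE, limma; 4.05-fold, adjusted p = 3.67e-07).

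Atp5me, the e subunit of the ATP synthase membrane part, was measured at 13.06, 13.03, 13.09, 13.33 and 13.05 in LR-HR and at 10.75, 11.30, 11.32, 11.46 and 11.30 in LR-LR. LR arrays held 13.44, 13.37, 13.62, 14.24 and 13.50, and HR arrays 12.01, 11.63, 11.66, 12.01 and 11.75. The order was again LR and LR-HR above HR and LR-LR without overlap, and HR arrays also lay above the LR-LR arrays. The foster difference was 1.89 ± 0.19 (adjusted p = 1.08e-06).

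Sdha, the flavoprotein that carries the succinate dehydrogenase active site, was the opposite case. At P14 it was at 11.06, 11.13, 11.08, 11.26 and 11.36 in LR-HR and at 11.82, 11.90, 12.01, 12.36 and 12.09 in LR-LR. In LR it was at 10.13, 10.56, 10.42, 10.62 and 10.90, and in HR at 11.05, 11.75, 11.82, 11.57 and 11.73. Here the LR-LR arrays were the highest and the LR arrays the lowest, with LR-HR between them and no overlap among those 3 groups. The foster difference was -0.86 ± 0.19 (adjusted p = 0.00203).

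Ndufs1, the largest core subunit of complex I and a carrier of iron-sulphur clusters, was at 10.18, 10.66, 10.61, 10.31 and 10.61 in LR-HR and at 10.63, 10.94, 11.39, 11.15 and 11.55 in LR-LR, which overlapped. The difference of -0.66 ± 0.26 did not pass the threshold (adjusted p = 0.0806). Other core and catalytic members with no call in this comparison included Ndufv1 (0.11) and Ndufv2 (0.41) of complex I. In the ATP synthase, Atp5f1a (-0.40) and Atp5f1b (-0.04) of the head and Atp5f1c (-0.06) of the central stalk had no call. Ndufs7, a core iron-sulphur subunit of complex I, was higher by 1.60 ± 0.17 (adjusted p = 1.38e-06), and Atp5f1e, a small subunit of the ATP synthase central stalk, by 1.65 ± 0.22 (adjusted p = 1.35e-05).

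The line comparison (HR minus LR) at P14 had the opposite sign for most called members. In HR pups 31 members were lower and 3 higher than in LR pups, against 9.98% lower and 12.8% higher over all transcripts, with a median of -1.08. The lower members were 8 of complex I, 3 of complex III, 9 of complex IV and 11 of complex V. Atp5f1e was lower by the widest margin, with LR arrays from 11.27 to 11.93 and HR arrays from 8.95 to 9.99, a difference of -2.08 ± 0.22 (adjusted p = 1.06e-06). Ndufs5, an accessory subunit of complex I, spanned 10.64 to 11.10 in LR and 8.72 to 9.16 in HR (-1.96 ± 0.18, adjusted p = 3.47e-07). Sdha was higher in HR by 1.06 ± 0.19 (adjusted p = 0.000281), Atp5f1a by 0.57 and Ndufs1 by 0.82 ± 0.26 (adjusted p = 0.0272). The Ndufs1 call was lost without LR array 4 (adjusted p = 0.0714) and without each of HR arrays 2 to 5 (0.0596 to 0.0814). The foster and line comparisons share no array, and the 27 members higher with an HR dam were all among the 31 lower in HR pups (100% and 87.1% of the lists). The 4 others in the second list were Atp5mc2, Ndufs4, Ndufv2 and Uqcrc1. Many transcripts outside the members were also called in both comparisons' directions, and whether their lists overlap to the same extent was not tested.

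The fostering comparison (LR-LR minus LR) sets LR pups moved to another LR dam against those left with their mother. At P14 it gave 28 members lower and 6 higher, against 12.7% and 24.9% of all transcripts, with a median of -1.04. It shares the LR-LR arrays with the foster comparison and the LR arrays with the line comparison, and its values are therefore given only side by side. Atp5me differed by -2.41 ± 0.19 (adjusted p = 2.88e-08), Atp5f1e by -2.15 ± 0.22 (adjusted p = 2.51e-07) and Cox7a2 by -2.05. Ndufs1 was higher in LR-LR by 1.53 ± 0.26 (adjusted p = 0.000102) and Sdha by 1.51 ± 0.19 (adjusted p = 2.76e-06). Atp5f1a, Atp5f1b and Ndufa10l1 were also higher. The median array mean over all members at P14 was 10.84 in LR-LR and 10.72 in HR, and 11.57 in LR-HR and 11.58 in LR.

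**Figure D3:**
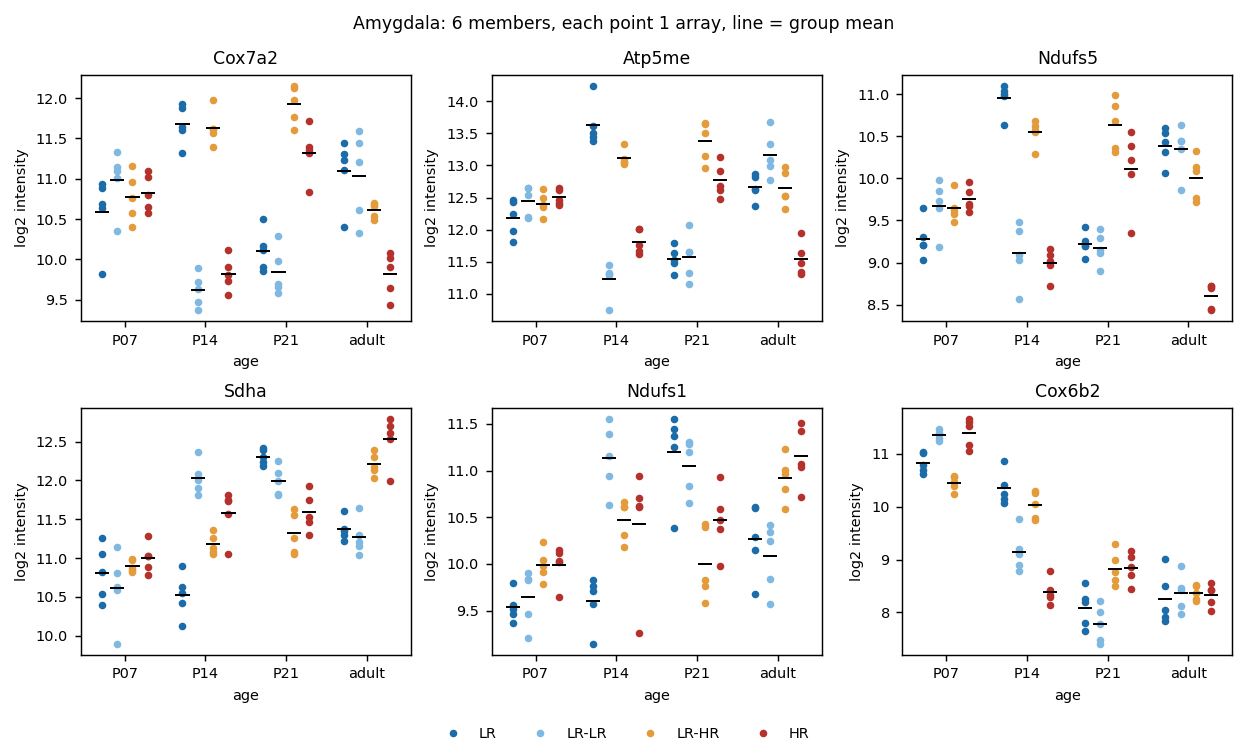
Log2 intensity of 6 members in each amygdala array (points; black lines are means of 5 arrays), by age and rearing group. Cox7a2, Atp5me and Ndufs5 are high in LR and LR-HR at P14, in LR-HR and HR at P21, and low in HR adults; the means of Sdha and Ndufs1 are highest in LR-LR at P14, in LR at P21 and in HR in adults, and Cox6b2 is lower at P21 than at P07 in each group.

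At P21 the foster difference had the same sign as at P14. LR-HR exceeded LR-LR in 30 members and was lower in 3, against 6.14% higher and 15.5% lower over all transcripts, with medians of 0.95 and -0.15. All 27 members that were higher at P14 were among these 30, which also held Cox8c, Ndufs4 and Uqcrc1. The overlap between these ages over all transcripts was not tested. The higher members were 7 of complex I, 3 of complex III, 10 of complex IV and 10 of complex V. Cox7a2 was at 11.98, 12.15, 12.13, 11.76 and 11.60 in LR-HR and at 9.66, 9.70, 9.98, 10.29 and 9.59 in LR-LR, a difference of 2.08 ± 0.20 (4.24-fold, adjusted p = 1.77e-06). Ndufa11, an accessory membrane subunit of complex I, spanned 12.38 to 12.88 in LR-HR and 10.29 to 11.32 in LR-LR (1.95 ± 0.21, adjusted p = 2.83e-06). Neither gene's groups overlapped.

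Ndufs1 and Sdha were among the 3 lower members at P21. Ndufs1 was at 9.58, 10.40, 9.82, 9.76 and 10.43 in LR-HR and at 11.30, 11.20, 10.84, 11.28 and 10.65 in LR-LR, with no overlap (-1.05 ± 0.25, adjusted p = 0.00482). Sdha was at 11.08, 11.05, 11.56, 11.26 and 11.63 in LR-HR and at 12.09, 12.25, 11.81, 11.83 and 11.99 in LR-LR (-0.68 ± 0.18, adjusted p = 0.0105).

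The line difference had turned by P21. HR pups, lower at P14, now exceeded LR pups in 26 members and were lower in 2, against 4.03% higher and 11.6% lower over all transcripts, with a median of 0.77. Atp5f1e spanned 10.68 to 11.43 in HR and 9.30 to 9.66 in LR (1.67 ± 0.19, adjusted p = 6.72e-05). Cox5b, a subunit of cytochrome c oxidase that binds zinc, spanned 14.13 to 14.63 in HR and 12.63 to 13.08 in LR (1.48 ± 0.18, adjusted p = 0.000107). The 2 lower members were Sdha (-0.72 ± 0.18, adjusted p = 0.0112) and Ndufs1 (-0.73 ± 0.25, adjusted p = 0.0481). The Ndufs1 call was lost in 8 of the 10 fits that left out 1 LR or HR array, all but those without LR array 1 or HR array 4 (adjusted p from 0.0581 to 0.125). All 26 higher members were also among the 30 of the foster comparison (100% and 86.7% of the lists). Whether all transcripts overlap to the same extent was not tested. In the fostering comparison at P21 no member was called, against 0.0135% of all transcripts, and the median difference was 0.02.

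In adults fewer members differed in the foster comparison, and the line difference had turned again. LR-HR exceeded LR-LR in 4 members and was lower in 6, against 17.2% higher and 4.55% lower over all transcripts, and the medians were -0.12 and 0.12. Replicate numbers paired these arrays, and with the number as a block 6 members were higher and 11 lower. Without LR-LR array 3 or LR-HR array 4 the counts were 2 higher and 4 lower. The 4 higher were Sdha, Ndufs1, Atp5f1a and Uqcrfs1, the Rieske iron-sulphur protein of complex III. The 6 lower were Cox6c, Cox7b, Atp5f1e, Atp5if1, Atp5mk and Atp5pf, a subunit of the ATP synthase stalk.

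Sdha in adults was at 12.17, 12.14, 12.03, 12.39 and 12.30 in LR-HR and at 11.05, 11.16, 11.20, 11.30 and 11.64 in LR-LR, with no overlap (0.94 ± 0.17, adjusted p = 0.000841). The sign is opposite to that at P14 and P21. Atp5mk, a small membrane subunit of the ATP synthase, was at 11.44, 11.85, 11.59, 11.85 and 11.80 in LR-HR and at 12.07, 12.35, 12.34, 12.72 and 12.31 in LR-LR (-0.65 ± 0.17, adjusted p = 0.01). Cox6c differed by -0.71 ± 0.16 (adjusted p = 0.00322) and Ndufs1 by 0.83 ± 0.22 (adjusted p = 0.0104).

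In adult HR rats 28 members were lower and 3 higher than in LR rats, against 7.88% and 20.2% of all transcripts, with a median of -0.59. Ndufs5 was at 8.43, 8.45, 8.70, 8.72 and 8.73 in HR and at 10.07, 10.43, 10.32, 10.59 and 10.54 in LR (-1.78 ± 0.18, 3.44-fold, adjusted p = 8.61e-07). Its LR-HR arrays, at 9.72, 9.77, 10.14, 10.09 and 10.32, overlapped those of LR and LR-LR, and all 5 HR arrays lay below all others. Atp5mk differed by -1.75 ± 0.17 (adjusted p = 7.31e-07). The 3 higher members were Sdha (1.16 ± 0.17, adjusted p = 4.46e-05), Ndufs1 (0.89 ± 0.22, adjusted p = 0.00438) and the catalytic ATP synthase subunit Atp5f1b (0.52). The 6 members that were lower in LR-HR were all among the 28 lower in HR, 21.4% of that list. Such an overlap was not tested over all transcripts. In the fostering comparison of adults no member was called, against 0.658% of all transcripts.

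**Figure D4:**
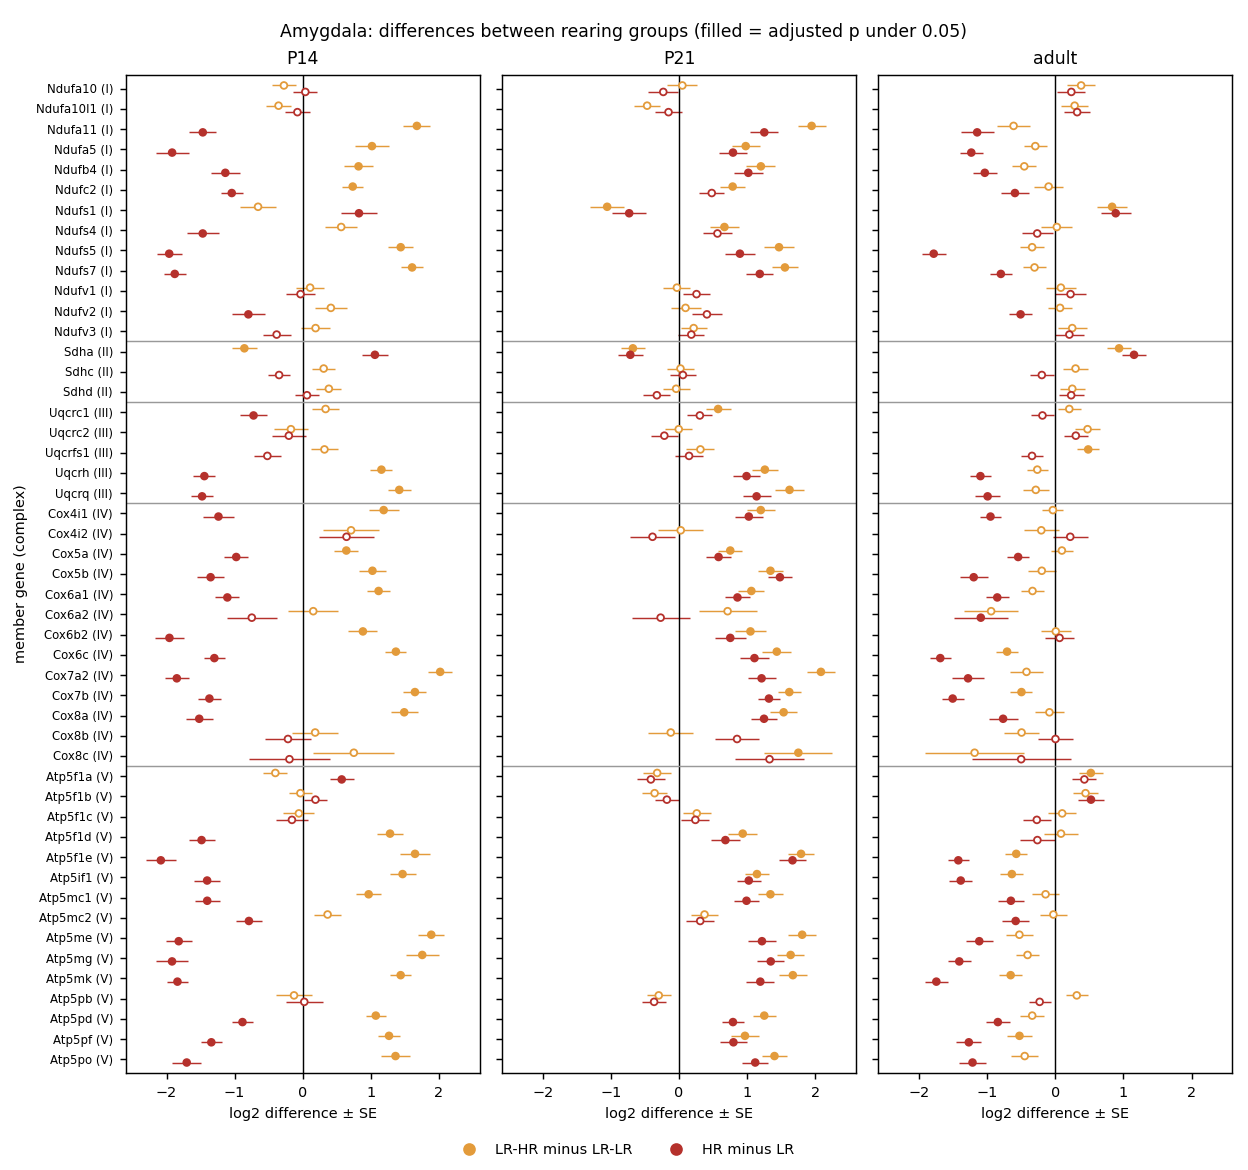
Log2 difference ± SE (limma, 5 arrays a group) of each of 49 members in the foster comparison (LR-HR minus LR-LR, orange) and the line comparison (HR minus LR, red) in the amygdala at P14, P21 and in adults; filled points passed an adjusted p under 0.05. Members that passed in both comparisons lie on opposite sides of 0 at P14 and on the same side at P21, and in adults the line differences are the larger for most complex IV and V members.

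At P07 the groups differed little. In the foster comparison 1 member was called, Cox6b2, against 0.0901% of all transcripts. In the line and fostering comparisons no member was called, against 0.131% and 0.0586% of all transcripts. Cox6b2 encodes an isoform of cytochrome c oxidase subunit VIb known for its expression in testis. At P07 it was at 10.39, 10.47, 10.55, 10.58 and 10.25 in LR-HR and at 11.25, 11.39, 11.38, 11.48 and 11.29 in LR-LR, with no overlap. The difference was -0.91 ± 0.15 (adjusted p = 0.0188). It was lost without LR-HR array 2 (adjusted p = 0.0671) or array 5 (0.0641).

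Cox6b2 was also the member with the largest change over age. Averaged over the rearing groups in the amygdala, it fell by 1.53 from P07 to P14 on the log2 scale (SE 0.10, adjusted p = 3.49e-22) and fell by 1.09 from P14 to P21 (SE 0.10, adjusted p = 9.96e-15). The timing differed by group. At P14 it was at 8.78, 8.29, 8.14, 8.33 and 8.42 in HR and at 8.89, 9.10, 8.77, 9.77 and 9.20 in LR-LR. LR arrays then still held 10.15, 10.24, 10.06, 10.86 and 10.41 and LR-HR arrays 10.05, 9.75, 10.25, 10.29 and 9.79, and LR lay above HR and LR-LR without overlap. From P07 to P14 the change was -3.00 ± 0.19 in HR and -2.21 ± 0.19 in LR-LR, and -0.48 in LR and -0.42 in LR-HR, which did not pass the threshold. From P14 to P21 it was -2.26 ± 0.19 in LR, -1.37 in LR-LR and -1.20 in LR-HR, and 0.45 in HR, without a call. The adult groups overlapped, with means of 8.26 in LR, 8.37 in LR-LR, 8.38 in LR-HR and 8.32 in HR.

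Steps between ages, averaged over the rearing groups, passed the threshold for few members in the amygdala, where single rearing groups moved in opposite directions. From P07 to P14, 9 members rose and 3 fell (14.9% and 12.7% of all transcripts). From P14 to P21, 1 rose and 8 fell (9.44% and 5.83%), with 1 risen and 4 fallen without replicate 3 of each group, and 1 and 3 without replicate 5. From P21 to adult, 6 rose and 0 fell (8.01% and 11.7%). Sdha rose by 0.50 ± 0.08 at the first step (adjusted p = 1.55e-06) and by 0.47 ± 0.08 at the second (adjusted p = 1.58e-05). Ndufs1 rose by 0.62 ± 0.11 at the first (adjusted p = 6.23e-06). Over LR and HR arrays alone neither passed at the first step (adjusted p = 0.491 for Sdha and 0.372 for Ndufs1). From P21 to adult Ndufs7 rose by 0.49 ± 0.07 (adjusted p = 1.02e-07).

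Within single rearing groups the amygdala steps were larger. From P07 to P14, 28 members rose and 1 fell in LR (14.5% of all transcripts changed in either direction) and 21 rose in LR-HR (8.02%), or 12 without replicate 2 or 3 of each group. In LR-LR 5 rose and 26 fell (33.2%), and in HR 1 rose and 27 fell (20.2%). Cox7a2 changed by 1.08 in LR, -1.0 in HR, 0.86 in LR-HR and -1.37 in LR-LR, each ± 0.20 and each past the threshold. From P14 to P21 the LR and HR groups crossed: in LR 5 rose and 32 fell (38.9%) and in HR 28 rose and 0 fell (8.19%). In LR-LR and LR-HR 3 fell in each and 0 rose (1.98% and 5.05%), but 1 fell in LR-LR without replicate 3 or 5 and 1 in LR-HR without replicate 2 or 3. From P21 to adult, 30 rose and 5 fell in LR (36.5%) and 29 rose and 6 fell in LR-LR (40.1%). At the same step 3 rose and 19 fell in LR-HR (11.6%), and 3 rose and 24 fell in HR (14.3%). Sdha changed at that step by -0.94 in LR, -0.72 in LR-LR, 0.89 in LR-HR and 0.94 in HR, each ± 0.17 and called. Steps within single rearing groups were tested after the averages had been seen.

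The change of the foster difference between P21 and adult was itself tested in the amygdala. Of the members 36 differed, 29 of them with a lower and 7 with a higher value in adults, against 41.1% of all transcripts in either direction. Cox8c turned most (-2.93 ± 0.94, adjusted p = 0.00895), Ndufa11 by -2.56 ± 0.26 (adjusted p = 2.37e-12) and Cox7a2 by -2.50 ± 0.28 (adjusted p = 9.03e-11). Cox8c was dim in the amygdala, with a mean of 7.53 against a median of 7.64 over all transcripts. Its LR-HR and LR-LR arrays overlapped at P21, and its adult foster difference did not pass (adjusted p = 0.247). In the other direction Ndufs1 turned by 1.89 ± 0.31 (adjusted p = 1.24e-06) and Sdha by 1.61 ± 0.24 (adjusted p = 8.68e-08). In the hippocampus 2 members differed (Uqcrc2 and Ndufv2, both lower in adults), against 1% of all transcripts. Without replicate 1, 2 or 3 of each group there were 0, without replicate 4 there were 6 and without replicate 5 there were 12.

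Genes of other lists also differed between these amygdala groups, and their part in the result was not tested. Of 28 genes for cytosolic ribosomal proteins, 25 were higher and 0 lower in LR-HR than in LR-LR at P14 (median 1.17). The counts of these 28 were 23 and 0 for the foster comparison at P21, 0 and 28 for the line comparison at P14, 20 and 0 for it at P21, and 0 and 24 for it in adults. Their array means at P14 were 12.35 to 12.68 in LR and 12.25 to 12.43 in LR-HR, and 11.04 to 11.41 in LR-LR and 10.93 to 11.50 in HR, the order seen for the members. Of 13 neuron genes measured, 0 were higher and 8 lower in the foster comparison at P14 (median -0.85), 0 and 6 at P21, and 10 and 0 in adults. Their array means at P14 were 10.83 to 11.23 in LR, 11.17 to 11.42 in LR-HR, 11.44 to 11.71 in HR and 11.91 to 12.25 in LR-LR. This is the order of Sdha.

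Lists for other cell types were counted against all transcripts, of which 8.52% were higher and 13.7% lower in the foster comparison at P14. Counts near those shares show no difference particular to a list, and departures from them were not tested. In the foster comparison at P14, the counts higher and lower were 1 and 3 of 9 for astrocytes, 0 and 0 of 10 for myelin and mature oligodendrocytes, and 2 and 0 of 9 for microglia. They were 0 and 1 of 5 for endothelial cells, 4 and 0 of 7 for blood cells, 2 and 0 of 6 for choroid plexus, 1 and 0 of 9 for skeletal and heart muscle, 1 and 1 of 5 for amygdala neurons and 0 and 0 of 1 for hippocampal neurons. In the line comparison at P14 all 10 myelin genes were higher in HR (median 2.10), with array means of 10.30 to 11.98 in HR and 8.52 to 8.98 in LR. Muscle markers had array means from 6.52 to 7.69 in the amygdala, and the muscle isoforms Cox6a2 (0.15) and Cox8b (0.18) did not pass in the foster comparison at P14.

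Other mitochondrial genes did not share one direction with the members. Of 11 measured assembly factors and electron carriers, 3 were higher and 0 lower in the foster comparison at P14, against 8.52% and 13.7% of all transcripts. The 3 were Cox17, a copper chaperone for complex IV (1.43 ± 0.18, adjusted p = 1.02e-05), Surf1, a complex IV assembly factor (1.11 ± 0.37, adjusted p = 0.0322), and Ndufaf3, a complex I assembly factor (0.90 ± 0.23, adjusted p = 0.00623). Of 11 enzymes of the tricarboxylic acid cycle, 1 was higher and 4 lower. Cs, the citrate synthase, was lower in LR-HR (-1.20 ± 0.18, adjusted p = 6.93e-05), as were Dlst (-1.02) and Ogdh (-0.90), and Mdh2, the malate dehydrogenase, was higher (0.65). The direction of Cs, Dlst and Ogdh is that of Sdha, a subunit of succinate dehydrogenase (complex II), which is also a cycle enzyme. The other complex II members, Sdhc and Sdhd, were not called in this comparison.

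Of 15 carriers and import proteins of the mitochondrial membranes 1 was higher and 3 lower in the foster comparison at P14. Over all transcripts 8.52% were higher and 13.7% lower. Among the lower carriers was the outer membrane channel Vdac1 (-1.02 ± 0.17, adjusted p = 0.000165). Of 16 glycolytic enzymes 0 were higher and 2 lower. Of 9 regulators of mitochondrial biogenesis 0 were higher and 1 lower, Gabpb1, a subunit of GABP (-1.11 ± 0.34, adjusted p = 0.0199). Counts this close to the shares of all transcripts show nothing particular to these lists. At P21 the regulators had 0 higher and 2 lower, against 6.14% and 15.5% of all transcripts. The 2 were the coactivators Ppargc1a (-0.68 ± 0.22, adjusted p = 0.0345) and Ppargc1b (-0.60 ± 0.21, adjusted p = 0.0402). In adults the line comparison had 5 cycle enzymes higher in HR and 0 lower, against 20.2% and 7.88% of all transcripts. Ogdh was at 1.56 ± 0.20 (adjusted p = 1.13e-05) and Cs at 1.30 ± 0.18 (adjusted p = 1.5e-05).

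In the hippocampus few members passed the threshold between rearing groups, which does not show that the groups were equal. The mean over the 50 members at P14 was 10.72 to 11.12 in LR-HR and 10.35 to 10.80 in LR-LR. In adults it was 10.54 to 10.76 in LR-HR and 10.21 to 10.52 in LR-LR, without overlap. Differences in these means were not tested. The foster comparison called 1 of 50 members higher at P07 (2.91% of all transcripts in either direction), 0 at P14 (0.583%), 3 higher at P21 (0.969%) and 0 in adults (0.00386%). The line comparison called 0 at P07 (0.147%), 1 lower at P14 (2.76%), 0 at P21 (0%) and 0 in adults (0.0502%). The fostering comparison called 0 at P07 (2.59%), P14 (1.53%), P21 (0.0116%) and in adults (0%). Replicate numbers paired the arrays of some of these comparisons, and with the block the foster comparison at P07 had 4 higher, and the fostering comparison 2 lower at P07 and 1 lower at P14. In the line comparison the lowest same-number correlation was 0.081 at P07 and 0.0884 at P14, just under the 0.1 set for pairing. Of 20 arrays at these ages, 20 and 19 lay closest to arrays of their own number. With the block, the line comparison had more calls at both ages, as given in the closing section. The fostering comparison at P21 had 5 lower without LR-LR array 4 and 3 lower without LR-LR array 5.

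At P07 the member called was Uqcrc2, a core protein of complex III. It was at 9.07, 9.22, 9.96, 10.16 and 10.01 in LR-HR and at 8.10, 8.51, 8.68, 8.39 and 9.37 in LR-LR, and the groups overlapped through LR-LR array 5. The difference was 1.07 ± 0.28 (adjusted p = 0.0341), and it was lost without any 1 of LR-LR arrays 1 to 4 or LR-HR arrays 3 to 5 (adjusted p from 0.0669 to 0.109). Without LR-LR array 5, 2 members were called. At P14 Uqcrfs1 was lower in HR than in LR (-1.08 ± 0.24, adjusted p = 0.011). Its HR arrays were at 9.61, 10.06, 10.26, 9.51 and 10.74 and its LR arrays at 10.96, 10.84, 10.98, 11.44 and 11.34, with no overlap. Without HR array 5, 6 members were called lower.

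At P21 the 3 members higher in LR-HR were Uqcrc2 (1.83 ± 0.39, adjusted p = 0.0315), Ndufv2, a core complex I subunit (1.51 ± 0.33, adjusted p = 0.0373), and the complex II membrane anchor Sdhc (1.19). The LR-LR arrays, which stood apart from other hippocampal arrays, were split, and whether these arrays and LR array 5 hold the samples their labels name could not be checked. Uqcrc2 was at 7.07, 7.47, 7.41, 9.43 and 9.46 in LR-LR and at 10.02, 9.89, 9.99, 10.35 and 9.71 in LR-HR. Ndufs1 was at 5.87, 6.31, 7.09, 9.99 and 9.96 in LR-LR, and Cox7a2 at 11.96, 11.75, 12.17, 10.18 and 9.99. Arrays 1, 2 and 3 were thus low in Uqcrc2 and Ndufs1 and high in Cox7a2, and arrays 4 and 5 the reverse. Ndufs1 in array 1 lay at the level of the random control.

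The hippocampal results at P21 rest on these arrays. Without LR-LR arrays 4 and 5 the foster comparison had 13 members higher and 9 lower, and without arrays 1, 2 and 3 it had 0. Without any 1 of arrays 1, 2 and 3, or any 1 LR-HR array, it had 0 calls, and it had 12 higher without array 4 and 11 without array 5. LR array 5 was likewise apart, with Ndufs1 at 10.36 against 8.50 to 9.11 in the other LR arrays and Cox7a2 at 8.61 against 11.04 to 11.40.

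**Figure D5:**
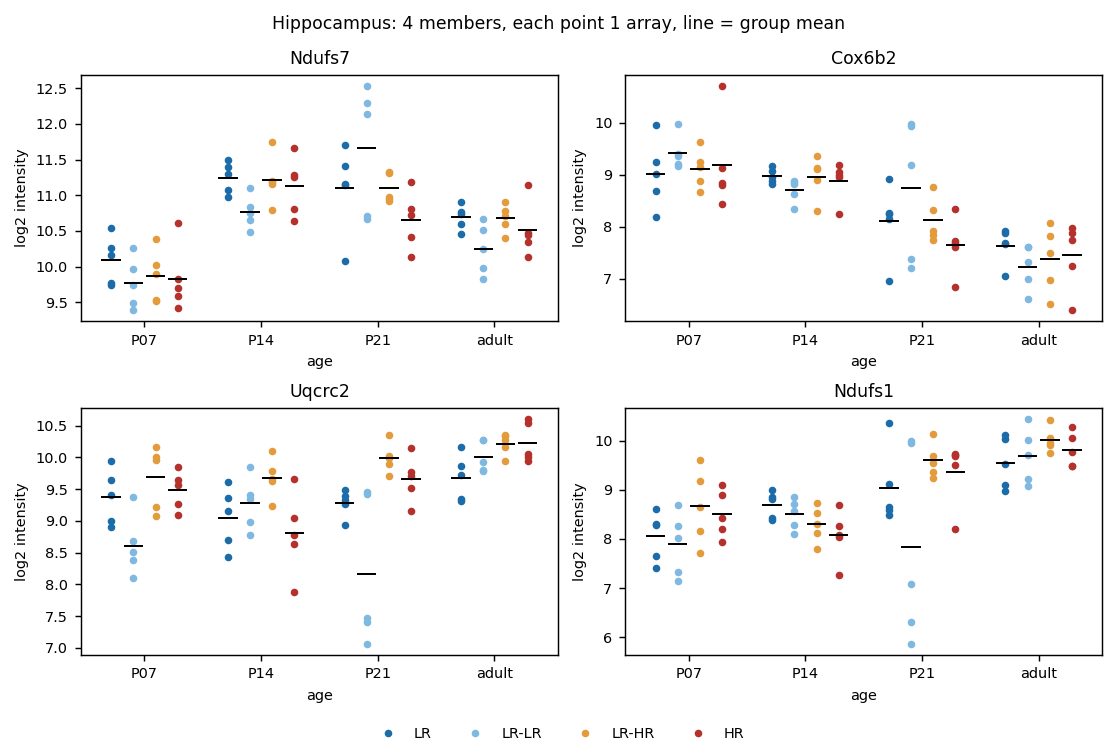
Log2 intensity of 4 members in each hippocampal array (points; black lines are means of 5 arrays), by age and rearing group. Ndufs7 is higher at P14 than at P07 in each group, Cox6b2 is lower in adults than at P07, and the P21 LR-LR arrays split into 3 low and 2 high arrays in Uqcrc2 and Ndufs1.

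The foster difference was compared between the regions at each age, in 22192 shared transcripts, as the amygdala value minus the hippocampal value. At P07 no member differed (0.225% of all transcripts). At P14, 10 were higher in the amygdala and 0 lower (2.53%), led by Atp5me (1.59 ± 0.26, adjusted p = 0.000809), Ndufa11 (1.54 ± 0.32) and Atp5mg (1.44 ± 0.30). Without replicate 2 or 3 of each group 1 member was called, and without replicate 4 there were 5. At P21, 23 were higher and 11 lower (20.9%), but the count fell to 1 without hippocampal LR-LR arrays 1, 2 and 3 and was 42 without arrays 4 and 5. It was 17, 5 and 21 without replicates 1, 2 and 3 of each group. In adults 9 were lower and 0 higher (5.11%), led by Atp5if1 (-1.21 ± 0.26, adjusted p = 0.00493) and Atp5mk (-1.15 ± 0.25, adjusted p = 0.00416). Without replicate 2 there were 2, and 3 without replicate 3 or 4.

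Over age, 28 of the 50 hippocampal members rose at the first step. From P07 to P14, averaged over the rearing groups, they rose and 0 fell, against 7.44% and 4.71% of all transcripts, with a median of 0.52 over members and -0.01 over all transcripts. The risers were 7 of complex I, 2 of complex III, 9 of complex IV and 10 of complex V, and none of the 3 members of complex II. Ndufs7 rose most (1.20 ± 0.13, adjusted p = 4.14e-11), followed by Atp5me (1.12 ± 0.15, adjusted p = 1.53e-08) and Ndufs5 (1.01 ± 0.15, adjusted p = 3.37e-07). Ndufs7 was at 10.16, 9.75, 10.25, 9.76 and 10.54 in LR at P07 and at 10.97, 11.07, 11.50, 11.39 and 11.29 at P14. In HR it was at 9.70, 9.41, 9.83, 9.59 and 10.61 at P07 and at 10.63, 10.81, 11.25, 11.29 and 11.67 at P14, so that the highest P07 array lay just below the lowest P14 array. The rise of Ndufs7 passed the threshold in all 4 groups, at 1.15 in LR, 1.0 in LR-LR, 1.35 in LR-HR and 1.30 in HR. In LR-LR it was lost without replicate 1, 2, 3 or 4 of each group (adjusted p from 0.131 to 0.193), and in LR without replicate 4 (0.0619).

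Within single groups the same step gave 6 members risen in LR (3.87% of all transcripts changed in either direction), 2 in LR-LR (1.68%), 25 in LR-HR (2.86%) and 16 in HR (5.85%), and 0 fallen in each. Without replicate 1, 2, 3 or 4 of each group the counts were 1 to 3 in LR, 0 in LR-LR, 7 to 12 in LR-HR and 5 to 10 in HR, and without replicate 5 they were 9, 5, 27 and 20. Whether these counts differ between groups was not tested. Beside the 28 members, 2 ribosomal protein genes rose and 2 fell out of 28, and 0 of 11 cycle enzymes passed in either direction. The myelin list rose in 8 of 10 genes and the neuron list in 3 of 13, with 1 fallen.

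The later hippocampal steps rest in part on the P21 arrays that stood apart. From P14 to P21, 3 members rose and 5 fell (8.65% and 11.5% of all transcripts). Sdha rose by 0.74 ± 0.19 (adjusted p = 0.00297), and Cox6b2 fell by 0.73 (adjusted p = 0.00225). From P21 to adult, 8 rose and 11 fell (10.2% and 4.99%), with Sdha up by 0.82 ± 0.19 (adjusted p = 0.00141) and Ndufa11 down, at -1.07 ± 0.13 (adjusted p = 3.35e-09). Over LR, LR-HR and HR alone and without P21 LR array 5, the counts were 7 risen and 9 fallen at the first of these steps and 3 and 8 at the second. Leaving out replicate numbers 1, 2, 4 and 5 of all groups in turn gave 13, 4, 3 and 4 calls from P14 to P21. Leaving out numbers 1, 2, 3 and 5 gave 10, 12, 12 and 31 from P21 to adult.

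By group, the counts risen and fallen from P14 to P21 were 0 and 0 in LR (3.09% of all transcripts), 2 and 6 in LR-LR (7.36%), 0 and 1 in LR-HR (3.28%) and 8 and 1 in HR (11.6%). Without replicate 1, 2 or 3 of each group, 3, 1 and 1 members were called in LR-LR, and without replicate 4 or 5 there were 12 and 18. In HR 1 or 2 were called without any 1 of replicates 1 to 4 and 18 without replicate 5, and the call in LR-HR was lost without any 1 of replicates 1 to 4. From P21 to adult they were 0 and 0 in LR (0.915%), LR-HR (0.143%) and HR (0.197%), and 13 and 16 in LR-LR (13.8%). Members thus passed at the adult step in LR-LR, the group whose P21 arrays were split, and in no other single group, with 16 to 19 called in LR-LR without replicate 1, 2 or 3, and 1 in LR-HR without replicate 5. Cox6b2 in LR, LR-LR, LR-HR and HR averaged 9.01, 9.42, 9.11 and 9.18 at P07 and 7.64, 7.22, 7.37 and 7.44 in adults, and all its adult arrays, from 6.39 to 8.07, lay below the lowest P07 array (8.19).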

How the data were processed

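The values are 1-colour NimbleGen intensities, deposited by the authors on a linear scale after RMA, per the submitters' processing notes. The version and settings of RMA, the array design file, slides and scan dates were not stated there. Array medians (log2) were 7.47 to 7.88 in the amygdala and 6.83 to 7.03 in the hippocampus. From this gap the regions were taken to have been normalized separately, which the medians alone do not prove. Here log2 was taken without a pseudocount, and dim transcripts were kept. Identifiers were named through RefSeq accessions in a rat gene table (assembly GRCr8).

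Group differences came from limma 3.58.1 (lmFit and eBayes; R 4.3.3), over all transcripts of a region: 20 arrays of a region and age for rearing comparisons, 80 arrays for age steps and age differences, and 40 arrays for region differences. P-values were adjusted by the Benjamini-Hochberg method over all transcripts tested, and an adjusted p under 0.05 was a call. Errors are limma standard errors, on 5 arrays a group. The number of arrays limits the precision. Data were simulated from the foster comparison in the amygdala at P14 (22197 transcripts), with 50 transcripts changed at each size. There the fit recovered 4% of changes of 0.5, 38% of 1, 72% of 1.5 and 90% of 2 (log2). The real comparison called far more transcripts, 8.52% higher and 13.7% lower. With few changed transcripts the adjustment is stricter, so these shares do not measure recovery in the real comparison.

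The members, their roles and the gene lists were chosen with earlier results of these data known. Named genes were the 2 largest called rises and falls of each rearing comparison, the 3 largest of each age step, and a panel of 24 members by role, 20 of them measured. Other genes, those of the lists and of the tests of differences among them, were named after their values were seen. Some genes that enter the counts are not reported here by name. Alternatives were quantile normalization, a filter at the median level, a fit of the 2 groups alone, the replicate number as a block, own-mother groups alone and leaving out arrays. Replicate numbers were taken to pair arrays where each same-numbered pair's deviations correlated above 0.1, which held in 8 of 24 comparisons.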

Additional observations from a re-analysis of the deposited data

Results flagged for a closer look

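The arrays of a group were searched for 1 value far from the rest (its gap to the nearest array over the group's range, against Dixon's critical value of 0.71 for 5 arrays). This was done for the mean of the members and for the genes printed by array. Of 116 groups of values 9 passed, and chance gives about 1 in 20.

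In the hippocampus, the mean of the members was highest in LR array 5 at P07 (10.79, the next at 10.40, a ratio of 0.786). Array 5 was also the highest at P07 in LR-LR (10.75), LR-HR (10.70) and HR (10.71). The same held at P14 in LR (10.97), LR-LR (10.80), LR-HR (11.12) and HR (11.03), so this shift went with the replicate number in each group. At P21 the mean of the members was lowest in LR array 5 (10.18, the next at 10.68, a ratio of 0.77). Cox7a2 was lowest in that P21 array (8.61, the next at 11.04, a ratio of 0.871), and Ndufs1 was lowest at P21 in HR array 1 (8.21, the next at 9.50, a ratio of 0.853). In the amygdala at P14, Atp5me was highest in LR array 4 (14.24, the next at 13.62, a ratio of 0.72), lowest in LR-LR array 1 (10.75, the next at 11.30, a ratio of 0.771) and highest in LR-HR array 4 (13.33, the next at 13.09, a ratio of 0.773). Ndufs1 was lowest in HR array 1 at P14 (9.26, the next at 10.61, a ratio of 0.802) and in LR array 1 at P21 (10.39, the next at 11.25, a ratio of 0.742).

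The foster difference itself differed between P21 and adult in 36 members in the amygdala and 2 in the hippocampus. It differed between the regions in 10 members at P14, 34 at P21 and 9 in adults, by limma tests of the difference.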

How the results depend on the processing

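Of 60 named gene results under 715 alternative settings, the direction was kept in 715, the call was kept in 627 and lost in 88. Of 606 settings for the 60 counts of called members, 474 stayed within 1.5 times. In the amygdala the counts of the foster and line comparisons at P14 and P21, and of the line comparison in adults, stayed within 1.5 times under each setting run. For the rest the cause was not tested.

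With the replicate block the counts became 17 (foster, amygdala adult), 4, 7 and 2 (foster, line and fostering, hippocampus P07), 1, 6 and 1 (the same at P14) and 7 (foster, hippocampus P21). Hippocampal steps with the block gave 4 (P07 to P14 in LR-LR), 15, 1, 5 and 15 (P14 to P21 on average, in LR, LR-HR and HR) and 1 and 1 (P21 to adult in LR-HR and HR). The age difference in the hippocampus became 8 and the region difference in adults 16. The block changed no other count by over 1.5 times. The arrays with the same number were closest in 20, 13, 4 and 18 of 20 arrays in the amygdala from P07 to adult, and in 20, 19, 13 and 17 in the hippocampus.

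Quantile normalization gave 19 (foster, amygdala adult), 6 (amygdala P14 to P21 in LR-HR), 1 (fostering, hippocampus P14), 0 and 1 (hippocampus P14 to P21 and P21 to adult in LR-HR), 4 (age difference, hippocampus), and 1 and 14 (region difference, P07 and adult). Transcripts above the median level alone gave 1 (line, amygdala P07), 17 (foster, amygdala adult), 2 and 1 (line and fostering, hippocampus P14) and 5 (foster, hippocampus P21). Fits of the 2 groups alone gave 0 and 6 (foster, amygdala P07 and adult) and 0, 0 and 0 (foster P07, line P14 and foster P21, hippocampus). Own-mother groups alone gave 17 and 3 (amygdala P14 to P21 and P21 to adult) and 1 (hippocampus P21 to adult).

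Chosen after seeing the data, leaving out hippocampal P21 LR-LR arrays 4 and 5 gave 22 in the foster comparison, and leaving out arrays 1, 2 and 3 gave 0 there and 1 in the region difference. Without LR-LR and P21 LR array 5, the hippocampal steps gave 16 and 11.

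Leaving out 1 replicate at a time, counts ranged from 0 to 1 and 6 to 13 (foster, amygdala P07 and adult), 4 to 9 (amygdala P14 to P21), 12 to 17 (P07 to P14 in LR-HR), and 1 to 4 and 1 to 3 (P14 to P21 in LR-LR and LR-HR). In the hippocampus they ranged from 0 to 2 and 0 to 12 (foster P07 and P21), 1 to 6 (line P14) and 0 to 5 (fostering P21). Steps from P07 to P14 ranged from 1 to 9, 0 to 5, 7 to 27 and 5 to 20 (LR, LR-LR, LR-HR and HR). Steps from P14 to P21 ranged from 3 to 13 on average and 1 to 18, 0 to 1 and 1 to 18 (LR-LR, LR-HR and HR), and from P21 to adult from 10 to 31 on average, 16 to 34 and 0 to 1 (LR-LR and LR-HR). The age difference in the hippocampus ranged from 0 to 12, and the region difference from 1 to 9, 5 to 37 and 2 to 9 at P14, P21 and adult. A second identifier per gene could not be tried, since each member has 1.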
